A study of Homo sapiens with 18 samples.

Results

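The GADD45 family and the CDK inhibitors comprise 10 genes, taken as the rows whose symbols are GADD45A, GADD45B, GADD45G, CDKN1A, CDKN1B, CDKN1C, CDKN2A, CDKN2B, CDKN2C and CDKN2D, out of 26485 genes listed in each of 2 expression tables. All 10 were found in both tables. Of these, 6 had enough reads to be tested in both tables (GADD45A, GADD45B, CDKN1A, CDKN1B, CDKN2C and CDKN2D), 2 had few reads (CDKN1C and GADD45G), and 2 had none in any of 18 libraries (CDKN2A and CDKN2B).

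GADD45 proteins are small acidic proteins induced by DNA damage and other stress; they bind PCNA, p21 and the CDK1-cyclin B complex, and they activate MAP3K4, which lies upstream of p38 and JNK. CDK inhibitors form a pair of families. CIP/KIP proteins (p21 from CDKN1A, p27 from CDKN1B and p57 from CDKN1C) bind cyclin-CDK complexes, whereas INK4 proteins (p16 from CDKN2A, p15 from CDKN2B, p18 from CDKN2C and p19 from CDKN2D) bind CDK4 and CDK6 alone and keep D-type cyclins from activating them. Loss of CDKN2A is among the most frequent events in pancreatic ductal carcinoma, and much of the control of p27 lies in its breakdown by the SCF-SKP2 ligase rather than in its mRNA.

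The cells were PANC-1, an established cell line derived from a human ductal carcinoma of the pancreas, with RNA collected 72 h after treatment and 3 libraries in each of 6 groups. The siRNA table held cells given an siRNA against PKR (PKR siRNA 1 or, separately, PKR siRNA 2) or a control siRNA, and the C16 table held cells given DMSO, C16 400 nM or C16 800 nM. PKR, encoded by EIF2AK2, is a kinase activated by double-stranded RNA, and C16 is a small molecule that inhibits its activity. The sources do not state that the libraries of a group came from separate cultures, so p-values measure the spread between libraries, which may be technical. Reads on genes numbered 1512940 to 1873906 per siRNA library and 894145 to 1474308 per C16 library, and all levels are the deposited normalized counts, which were compared only within a table. EIF2AK2 averaged 97.4 ± 5.21 (SD, n = 3) normalized counts after control siRNA, 11.1 ± 2.19 after PKR siRNA 1 and 8.65 ± 0.726 after PKR siRNA 2. Under C16, which acts on the protein, it was 49.8 ± 4.20 with DMSO, 42.5 ± 3.26 at 400 nM and 49.9 ± 1.38 at 800 nM. The epithelial keratins KRT8, KRT18 and KRT19 lay at 519 to 5105 normalized counts in every library, while KRT7, EPCAM and CDH1 were low (0.761 to 120). PTPRC and CD3E were at 0 in all libraries, and PECAM1 and VWF did not exceed 0.995.

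Levels of different genes were compared per kb of exon. With control siRNA the order was GADD45A (49.0 ± 11.2 normalized counts per kb), GADD45B (40.1 ± 2.24), CDKN2C (38.2 ± 6.50), CDKN1B (27.9 ± 3.60), CDKN1A (20.4 ± 1.80), CDKN2D (6.64 ± 1.38), GADD45G (1.87 ± 0.832) and CDKN1C (0.677 ± 0.744). GADD45A, GADD45B and CDKN2C overlapped their neighbours in this order, as did GADD45G and CDKN1C, while CDKN1B, CDKN1A and CDKN2D each stood apart. DMSO libraries gave the order GADD45A (64.4 ± 6.42), CDKN2C (39.1 ± 4.59), GADD45B (37.9 ± 3.82), CDKN1A (25.4 ± 6.12), CDKN1B (25 ± 2.61), CDKN2D (3.67 ± 2.06), CDKN1C (2.91 ± 0.135) and GADD45G (0.781 ± 0.724). Here CDKN2C and GADD45B overlapped, as did CDKN1A and CDKN1B, and CDKN2D and CDKN1C. Averaged over the 9 libraries of a table, GADD45A had a level per kb above that of 93.0% of the 18230 genes with reads among the siRNA libraries and of 95% of 17683 among the C16 libraries. CDKN2D lay at 55.4% and 58.4%, CDKN1C at 37.6% and 37.0%, and GADD45G at 38.9% and 29.3%. CDKN1C is annotated a second time on an alternative contig, so its exon length was taken from chromosome 11 alone, and reads matching both copies may have been lost.

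The stretches upstream of 4 genes are shown because CDKN1A and CDKN1B diverged under C16, and CDKN2C and GADD45B had opposite signs in the siRNA and C16 comparisons. They are printed in lower case, 5′ to 3′, with matches to GGGCGG (the GC box), CCAAT and TATAAA in capitals. They are RefSeq sequences (GRCh38.p14, plus strand), each ending before the first exon base of that start site in the deposited annotation, at chr6:36678464-36678678, chr12:12717118-12717269, chr1:50968456-50968694 and chr19:2475877-2476124 in the order printed. The CDKN1A start site is an internal one, since the gene begins at chr6:36676460 in that annotation.

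CDKN1A: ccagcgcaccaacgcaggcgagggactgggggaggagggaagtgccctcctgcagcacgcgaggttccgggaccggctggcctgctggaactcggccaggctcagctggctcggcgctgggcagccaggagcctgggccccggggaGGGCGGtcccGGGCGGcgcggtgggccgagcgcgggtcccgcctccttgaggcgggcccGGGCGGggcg

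CDKN1B: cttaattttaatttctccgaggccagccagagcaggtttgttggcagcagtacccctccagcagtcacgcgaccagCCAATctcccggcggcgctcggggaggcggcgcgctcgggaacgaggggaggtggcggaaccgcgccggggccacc

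CDKN2C: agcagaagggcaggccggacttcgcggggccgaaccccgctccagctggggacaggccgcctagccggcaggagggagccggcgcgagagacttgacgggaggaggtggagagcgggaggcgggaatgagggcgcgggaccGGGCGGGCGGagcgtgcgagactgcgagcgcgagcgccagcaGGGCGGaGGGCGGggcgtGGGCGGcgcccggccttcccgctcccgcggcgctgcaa

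GADD45B: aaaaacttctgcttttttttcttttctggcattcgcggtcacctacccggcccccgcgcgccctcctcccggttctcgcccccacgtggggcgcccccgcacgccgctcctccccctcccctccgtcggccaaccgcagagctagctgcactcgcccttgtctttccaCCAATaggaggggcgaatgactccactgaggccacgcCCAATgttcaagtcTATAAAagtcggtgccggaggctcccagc

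RefSeq promoter windows of 250 bases before to 50 after a start site matched 8 of the 10 members. GADD45A and CDKN1C had no window and were not searched. Matches were sought on either strand and may overlap. In the printed stretches CDKN1A held 3 and CDKN2C 5 matches to GGGCGG, GADD45B held 1 TATAAA and 2 CCAAT, and CDKN1B held 1 CCAAT. In the full windows, which reach into the first exon, CDKN1A held 4 GGGCGG, CDKN1B 3 CCAAT and 1 GGGCGG, and GADD45B 1 TATAAA and 2 CCAAT. CDKN2C has 3 start sites in the table, whose full windows held 0, 6 and 1 GGGCGG, and the site shown, with 6, is the one at which the gene starts in the deposited annotation. Of 35116 full windows in the table, 45.0% held GGGCGG, 34.6% CCAAT and 11.5% TATAAA. Among the 8 matched members, the ATF and CREB site TGACGTCA (1.85% of windows) was in no window. TGATGNAA, a form of the C/EBP-ATF element (3.62%), was found for GADD45G alone. GC content was 78.6% in the CDKN1A stretch, 77.4% for CDKN2C, 67.1% for CDKN1B and 63.3% for GADD45B.

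GADD45A mRNA was higher after each PKR siRNA and at both doses of C16, whereas GADD45B rose after PKR siRNA 2 and fell with C16 at 800 nM. GADD45A (chr1:67685177-67688338, plus strand, 4 exon pieces) lay at 68.8, 51.6 and 82.5 normalized counts after control siRNA, at 112, 117 and 124 after PKR siRNA 1 and at 233, 193 and 205 after PKR siRNA 2. The 3 groups did not overlap. Differences were tested with limma on log2 (normalized count + 1) over all genes with a mean of at least 10, with Benjamini-Hochberg adjustment, and a gene was called where the adjusted p was under 0.05 and the fold over 1.5. GADD45A was called after PKR siRNA 1 (log2 fold change 0.81, SE 0.12, adjusted p = 2.13e-08) and after PKR siRNA 2 (1.64, SE 0.12, adjusted p = 1.28e-20), and the second siRNA exceeded the first (0.83, adjusted p = 6.81e-09). In bulk RNA, a change in the share of cells and a change in RNA per cell cannot be told apart, here and below.

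In the C16 table GADD45A lay at 84.5, 99.0 and 83.0 with DMSO, at 129, 134 and 136 at 400 nM and at 134, 150 and 146 at 800 nM. All libraries with C16 lay above all DMSO libraries, and the doses overlapped. At 800 nM the gene was called (log2 fold change 0.69, SE 0.11, adjusted p = 1.03e-06). At 400 nM the limma change was 0.58 (SE 0.11, adjusted p = 5.74e-05), a fold of 1.49 that lay just under the threshold of 1.5. The change at 400 nM passed when DMSO replicate 2 (0.66) or C16 400 nM replicate 1 (0.60) was left out. Between doses the difference was 0.11 (95% interval -0.12 to 0.33).

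GADD45B (chr19:2476125-2478259, plus strand) encodes a stress- and cytokine-induced member of the family. Its levels were 58.5, 52.6 and 54.0 normalized counts after control siRNA, 61.1, 51.7 and 59.8 after PKR siRNA 1 and 125, 106 and 121 after PKR siRNA 2. Only the libraries after PKR siRNA 2 stood apart, at 2.11 times the control on the fitted scale (log2 fold change 1.08, SE 0.14, limma adjusted p = 4e-10). With PKR siRNA 1 the change was 0.060 with a 95% interval of -0.22 to 0.34, so a change of 1.5-fold lay outside the interval. The siRNAs themselves differed by 1.02 (adjusted p = 1.52e-09).

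With C16 the GADD45B levels were 48.6, 58.1 and 49.5 for DMSO, 44.7, 32.3 and 42.6 at 400 nM and 33.3, 35.3 and 24.8 at 800 nM. Every C16 library was below every DMSO library. GADD45B fell by 0.73 on the log2 scale at 800 nM (SE 0.19, limma adjusted p = 0.00112), and without C16 800 nM replicate 3 the change was -0.58 and no longer past the 1.5-fold threshold. At 400 nM it was -0.39 (SE 0.19, adjusted p = 0.126).

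GADD45G (chr9:89605012-89606554, plus strand) was close to the limit of detection. Its reads summed to 6, 10 and 11 over the libraries of control siRNA and of the first and the second PKR siRNA and to 3, 4 and 2 over the DMSO, 400 nM and 800 nM libraries, so no library exceeded 6.96 normalized counts. For scale, 3 reads in a library corresponded to 2.72 to 3.33 normalized counts for siRNA and 2.28 to 3.66 for C16 libraries. A change was not detectable at this depth.

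**Figure D1:**
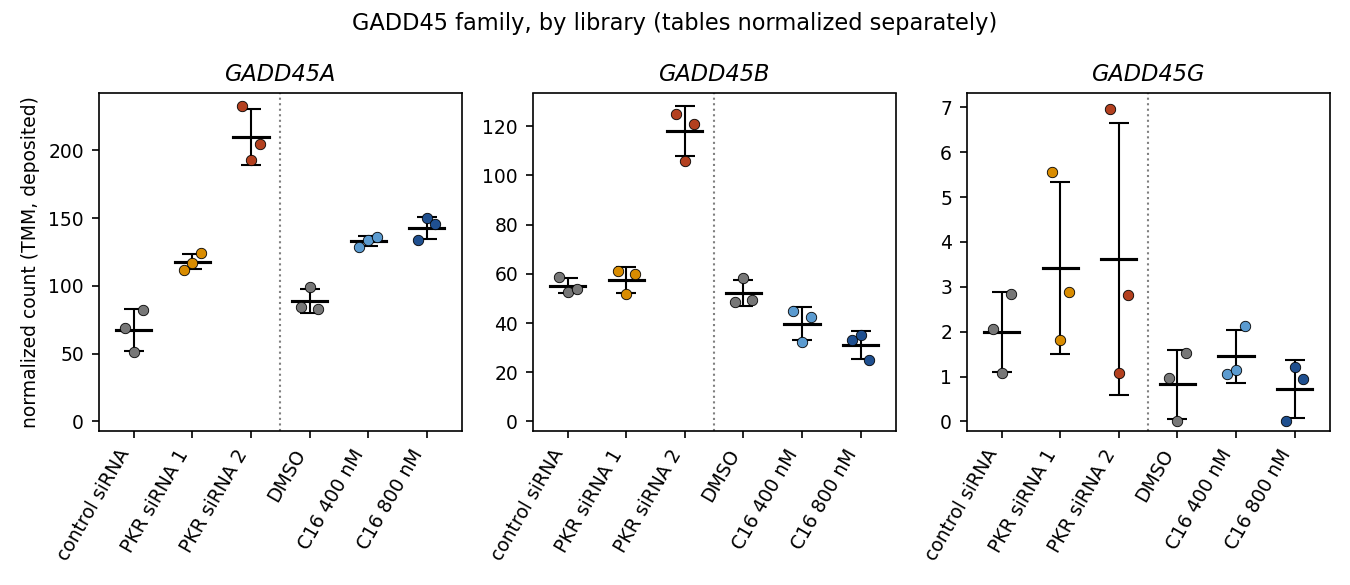
Deposited normalized counts of GADD45A, GADD45B and GADD45G in each of 18 libraries (points), with the group mean and SD (n = 3), the dotted line separating the 2 tables. GADD45A sits above its control in every treated group, GADD45B rises to 106 to 125 after PKR siRNA 2 and lies at 24.8 to 35.3 at 800 nM C16, and GADD45G stays under 7 normalized counts.

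Among the CIP/KIP genes, CDKN1A lay above its control after both siRNAs and at both C16 doses. Against control it was called after PKR siRNA 2 and with 400 nM C16. CDKN1B fell at both C16 doses and was called with neither siRNA, and CDKN1C was scarce. CDKN1A (chr6:36676460-36687339, plus strand), the gene for p21 and a classic target of p53, lay at 48.3, 56.9 and 55.9 normalized counts after control siRNA, at 80.0, 61.7 and 76.2 after PKR siRNA 1 and at 132, 110 and 147 after PKR siRNA 2. The groups were ordered without overlap. Against control CDKN1A rose by 1.25 on the log2 scale after PKR siRNA 2 (SE 0.14, limma adjusted p = 1.24e-12). It was 0.42 after PKR siRNA 1 (SE 0.14, adjusted p = 0.0081), a fold of 1.34 under the threshold, and the siRNAs differed by 0.83 (adjusted p = 2.54e-07).

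Under DMSO, CDKN1A read 48.6, 79.0 and 73.1 normalized counts, against 90.4, 104 and 115 at 400 nM and 93.8, 91.4 and 81.1 at 800 nM. Both doses lay above DMSO, the lowest treated library exceeding the highest DMSO library by little. The 400 nM change was called (log2 fold change 0.64, SE 0.14, limma adjusted p = 0.000401), but it fell under the 1.5-fold threshold without DMSO replicate 1 (0.43) or C16 400 nM replicate 3 (0.56). At 800 nM it was 0.43 (SE 0.14, adjusted p = 0.011), a fold of 1.35, and the doses differed by -0.21 (95% interval -0.49 to 0.076). In GENCODE, DINOL on the opposite strand covers 9.03% of the exon bases of CDKN1A, and whether counting used strand is not given in the sources used here.

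CDKN1B (chr12:12717270-12722382, plus strand), the gene for p27, showed the largest fall among the tested members. Its C16 table values were 63.2, 69.5 and 56.3 normalized counts with DMSO, 40.4, 28.8 and 31.9 at 400 nM and 25.2, 20.7 and 23.9 at 800 nM, with no overlap between any of the groups. It fell by 0.89 on the log2 scale at 400 nM (SE 0.19, limma adjusted p = 0.000286) and decreased by 1.40 at 800 nM (SE 0.19, adjusted p = 1.91e-08), to 0.379 of the DMSO level. The step between the doses was -0.51 (SE 0.19, adjusted p = 0.0665).

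CDKN1B was called after neither siRNA. Its normalized counts were 72.9, 60.2 and 77.7 after control siRNA, 63.3, 70.7 and 56.9 after PKR siRNA 1 and 75.6, 83.6 and 85.6 after PKR siRNA 2, and both siRNA groups overlapped the control. The 95% interval of the log2 fold change ran from -0.42 to 0.14 after PKR siRNA 1 and from -0.062 to 0.50 after PKR siRNA 2, so neither interval reached 1.5-fold. PKR siRNA 2 exceeded PKR siRNA 1 by 0.36 (limma adjusted p = 0.026), under the fold threshold.

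CDKN1C (chr11:2883218-2885765, minus strand), an imprinted gene whose product is p57, had too few reads for the main test. Its reads summed to 4 after control siRNA, 11 after PKR siRNA 1 and 28 after PKR siRNA 2, and to 19 with DMSO, 10 at 400 nM and 5 at 800 nM. By library it lay at 0, 1.07 and 2.84 normalized counts after control siRNA against 6.96, 12.9 and 8.46 after PKR siRNA 2, and at 5.83, 5.71 and 5.33 with DMSO against 1.01, 1.22 and 2.86 at 800 nM. In both comparisons the groups did not overlap. The ratio, scaled for depth, was 6.90 after PKR siRNA 2 (95% counting interval 2.41 to 27.1) and 0.312 at 800 nM C16 (0.0911 to 0.864), intervals that cover counting error only. In the limma fit without a minimum level, used as an alternative, CDKN1C was called after PKR siRNA 2 (log2 fold change 2.34, SE 0.54, adjusted p = 0.000596) and at 800 nM (-1.36, SE 0.52, adjusted p = 0.0455).

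**Figure D2:**
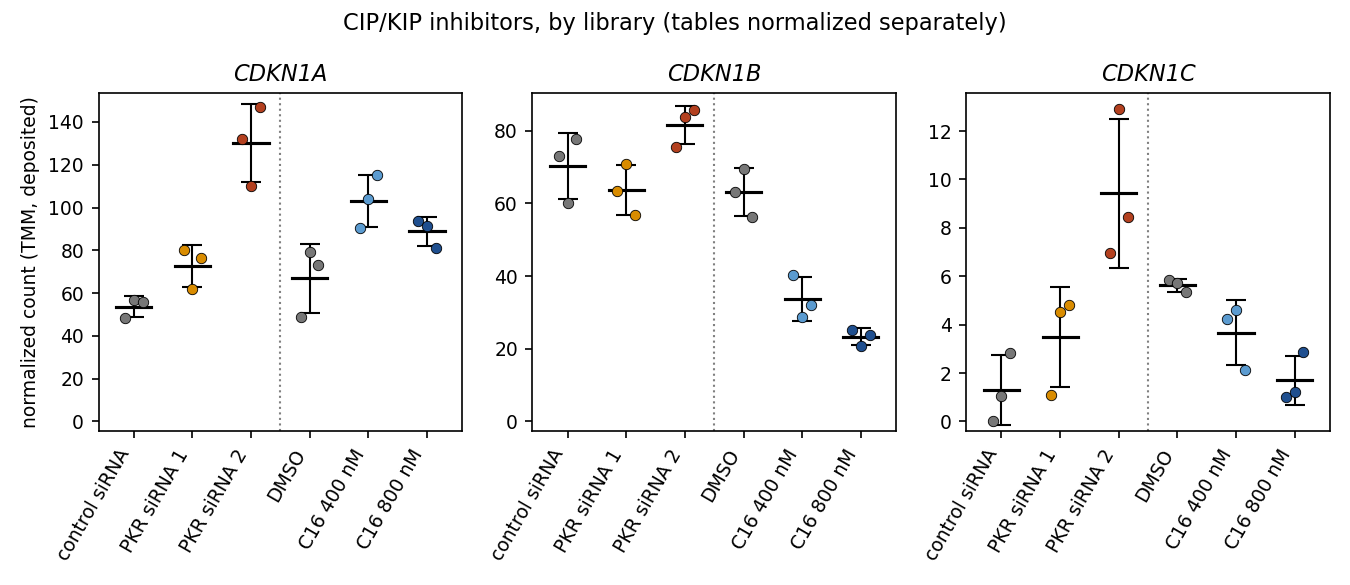
Deposited normalized counts of CDKN1A, CDKN1B and CDKN1C by library (points), with the group mean and SD (n = 3), the dotted line separating the 2 tables. CDKN1A reaches 110 to 147 after PKR siRNA 2, CDKN1B steps down from 56.3 to 69.5 with DMSO to 20.7 to 25.2 at 800 nM, and CDKN1C stays under 13 throughout.

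Of the INK4 genes, CDKN2C rose with both siRNAs and fell with 800 nM C16, and CDKN2D rose after PKR siRNA 1 and at both C16 doses. CDKN2C (chr1:50968695-50974637, plus strand), the gene for p18, lay at 111, 94.5 and 78.7 normalized counts after control siRNA, 166, 169 and 175 after PKR siRNA 1 and 163, 145 and 178 after PKR siRNA 2. Both siRNA groups stood above the control and overlapped each other. The log2 fold changes were 0.85 (SE 0.11, limma adjusted p = 4.21e-10) and 0.78 (SE 0.11, adjusted p = 5.2e-09), and the difference between the siRNAs was -0.072 (95% interval -0.29 to 0.14).

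With DMSO, CDKN2C lay at 110, 88.6 and 92.1, then at 54.2, 79.6 and 69.2 at 400 nM and at 43.4, 50 and 45.8 at 800 nM. These groups did not overlap. CDKN2C fell by 1.04 on the log2 scale at 800 nM (SE 0.15, limma adjusted p = 4.88e-08). At 400 nM the change was -0.52 (SE 0.15, adjusted p = 0.00619), a fold of 0.696 that missed the threshold and passed it without C16 400 nM replicate 2 (-0.65).

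CDKN2D (chr19:10566462-10568979, minus strand), the gene for p19, was tested on few reads, 2 to 26 in a library. Its normalized counts were 7.19, 10.7 and 10.4 after control siRNA, 15.6, 22.7 and 25.1 after PKR siRNA 1 and 5.97, 11.8 and 12.2 after PKR siRNA 2. PKR siRNA 1 alone stood apart. The group means were 9.45, 21.1 and 10 in that order, so CDKN2D reached the minimum mean of 10 only through PKR siRNA 1. With control siRNA and PKR siRNA 2 fitted alone it was not tested. Its calls with PKR siRNA 1 were thus in part fixed by that minimum. CDKN2D was called after PKR siRNA 1 (log2 fold change 1.07, SE 0.33, limma adjusted p = 0.00523) and was lower after PKR siRNA 2 than after PKR siRNA 1 (-1.04, SE 0.33, adjusted p = 0.00515). That difference between the siRNAs was -0.74, no longer past the test, without PKR siRNA 2 replicate 1. With PKR siRNA 2 against control the change was 0.034 (95% interval -0.62 to 0.69), an interval that includes 1.5-fold in either direction.

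In the C16 table CDKN2D lay at 1.94, 7.62 and 6.09 with DMSO, 19.1, 16.1 and 11.7 at 400 nM and 12.1, 13.4 and 13.4 at 800 nM. All treated libraries exceeded all DMSO libraries. The log2 fold changes were 1.54 (SE 0.37, limma adjusted p = 0.00103) and 1.30 (SE 0.37, adjusted p = 0.00289). DMSO replicate 1, with 2 reads, was the lowest, and without it the 800 nM change was 0.83 and no longer past the test. The mean of CDKN2D lay close to the minimum of 10, which it reached only through the C16 groups (means 5.22, 15.7 and 13 in order of dose). Its calls up were thus in part fixed by that minimum. CDKN2D was not tested with a minimum of 30, nor at 800 nM when DMSO and 800 nM were fitted alone. Without its call the members called at 800 nM numbered 4 in place of 5.

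CDKN2A and CDKN2B had 0 reads in all 18 libraries. With 25429269 reads on genes in all, 3 reads, the limit that a count of 0 allows, would be 0.118 CPM for either gene. Both lie on chromosome 9p21 (CDKN2A at chr9:21967752-21994491 and CDKN2B at chr9:22002903-22009313, minus strand), a region often lost in this kind of tumour, and PANC-1 is described as lacking CDKN2A. Neighbouring genes were read. MTAP, a methionine salvage enzyme beside CDKN2A, had 237 reads over the siRNA libraries and 144 over the C16 libraries, with reads in all 18 libraries. KLHL9 had 290 and 184, and FOCAD 281 and 192. Low counts were found for DMRTA1 (60 and 11), the antisense RNA CDKN2B-AS1 (14 and 3), IFNE (13 and 2) and MLLT3 (8 and 4), and ELAVL2 had 0 in both tables. The reads give expression and not the presence of DNA.

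**Figure D3:**
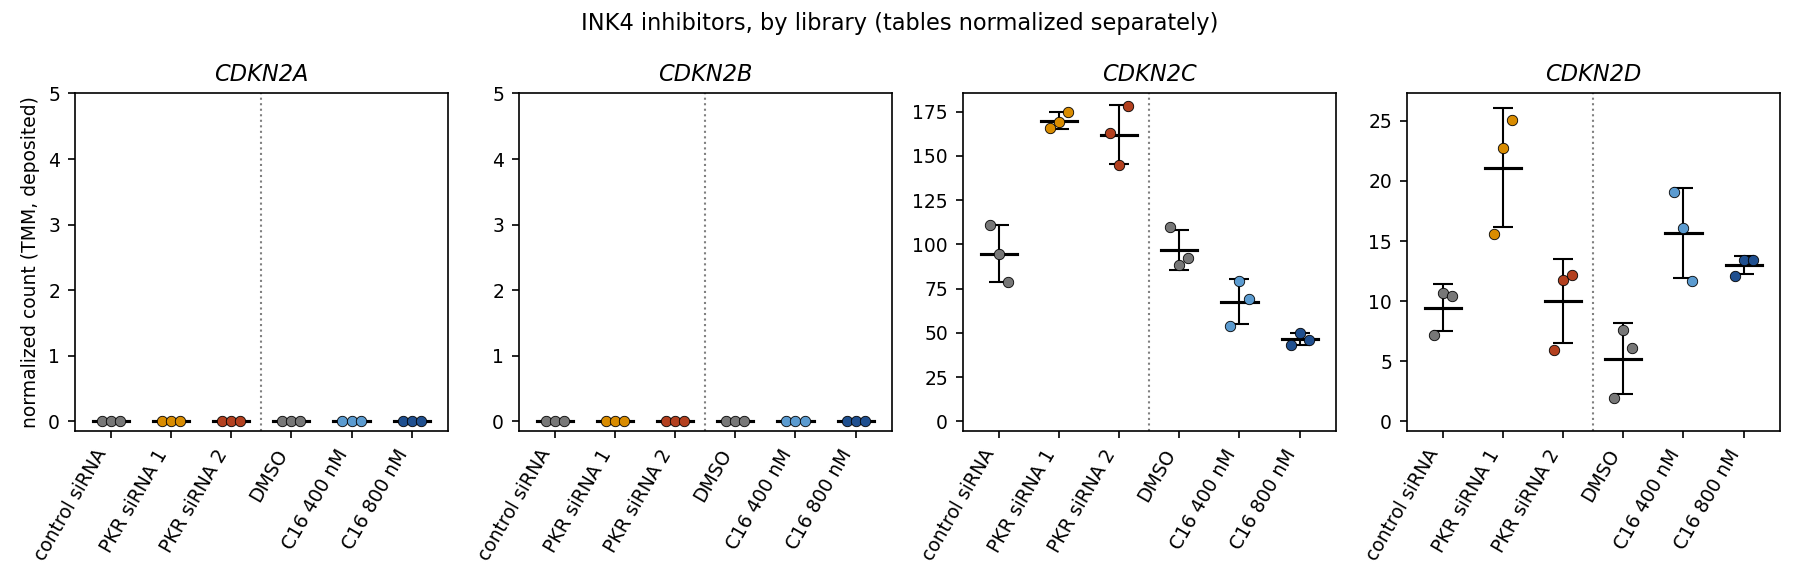
Deposited normalized counts of CDKN2A, CDKN2B, CDKN2C and CDKN2D by library (points), with the group mean and SD (n = 3), the dotted line separating the 2 tables. CDKN2A and CDKN2B sit at 0 in every library, CDKN2C is above its control with both siRNAs and below it with C16, and CDKN2D is highest after PKR siRNA 1 within its table.

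Counted over the members, those called rose with the siRNAs and split in direction with C16. With PKR siRNA 1, 3 of the 6 tested members were called up (GADD45A, CDKN2C and CDKN2D) and 0 down, against 8.53% of the 10593 genes tested called up and 12.6% down. Their median log2 fold change was 0.62, beside -0.0066 for all genes. With PKR siRNA 2, 4 were called up (GADD45A, GADD45B, CDKN1A and CDKN2C) and 0 down, against 10.8% and 12.8% of all genes, with medians of 0.93 and -0.011. Both comparisons share the control libraries. PKR siRNA 2 exceeded PKR siRNA 1 for 3 members (GADD45A, GADD45B and CDKN1A) and fell below it for CDKN2D, beside 16.4% and 15.3% of all genes called in those directions. CDKN2D counts as called after PKR siRNA 1 and between the siRNAs, but it reached the minimum mean only through PKR siRNA 1.

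At 400 nM C16, 2 of 6 tested members were called up (CDKN1A and CDKN2D) and CDKN1B was called down, beside 7.08% and 5.45% of the 9963 genes tested. At 800 nM, 2 were called up (GADD45A and CDKN2D) and 3 down (GADD45B, CDKN1B and CDKN2C), beside 11.6% and 14.1% of all genes. CDKN2D counts as up at both doses, but it reached the minimum mean only through the C16 groups. The median over the members was 0.096 at 400 nM and -0.15 at 800 nM, with 0.0010 and 0.0020 for all genes, and these comparisons share the DMSO libraries. Between 800 nM and 400 nM, 0 members were called by limma, while 2 had an unadjusted p under 0.05 (CDKN1B and CDKN2C) and edgeR and DESeq2 on the recovered reads also called 0; of all genes, 1.13% were called up and 3.95% down. CDKN2C came nearest, with -0.52 (SE 0.15, limma adjusted p = 0.0126) and a fold of 0.697. Without C16 400 nM replicate 1 its difference was -0.67 and 1 member was called. For single members, groups of 3 that do not overlap give an exact two-sided permutation p of 0.1, the smallest that this design allows.

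**Figure D4:**
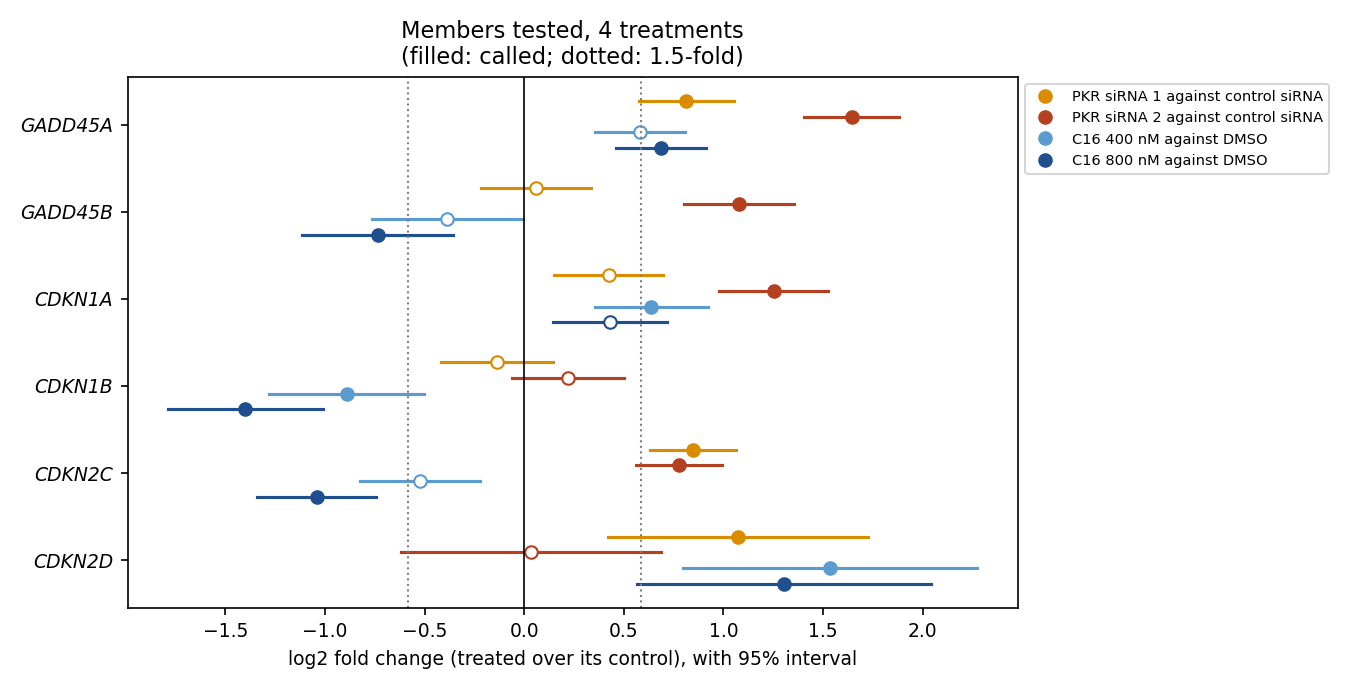
Log2 fold change of the 6 tested members against their own control with 95% intervals from the limma fit, for 2 siRNAs and 2 doses of C16; filled points were called and dotted lines mark 1.5-fold. GADD45A lies to the right of 0 in all 4 comparisons, CDKN1B lies far to the left with C16 only, and GADD45B and CDKN2C lie on opposite sides of 0 after PKR siRNA 2 and with 800 nM C16.

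The balance between paralogs of a family differed between groups. Per kb of exon, GADD45A was 1.22 ± 0.276 times GADD45B after control siRNA (range 0.976 to 1.52), 2.05 ± 0.213 after PKR siRNA 1 and 1.78 ± 0.0872 after PKR siRNA 2. In the C16 table this ratio of levels was 1.70 ± 0.0315 with DMSO, 3.40 ± 0.654 at 400 nM (2.87 to 4.13) and 4.70 ± 1.01 at 800 nM (4.02 to 5.86). The treated and control ranges did not overlap in either table. The ratio of CDKN1A to CDKN1B was 0.742 ± 0.144 after control siRNA, 1.11 ± 0.240 after PKR siRNA 1 and 1.53 ± 0.228 after PKR siRNA 2, where only the last group stood clear of the control. With DMSO it was 1.02 ± 0.259 (0.736 to 1.24), against 3.01 ± 0.753 at 400 nM (2.14 to 3.44) and 3.68 ± 0.495 at 800 nM (3.25 to 4.22). CDKN1A made up 47.2% ± 6.73 of the CIP/KIP level per kb with DMSO and 76.9% ± 2.97 at 800 nM. Summed per kb, the CIP/KIP level was 53.3 ± 7.02 with DMSO, 54.3 ± 2.61 at 400 nM and 43.8 ± 2.21 at 800 nM.

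CDKN2D supplied 8.78% ± 5.19 of the INK4 level per kb with DMSO, 29.0% ± 8.05 at 400 nM and 32.7% ± 0.921 at 800 nM. In the siRNA table its share was 15.1% ± 4.47 after control siRNA, 17.7% ± 3.18 after PKR siRNA 1 and 9.70% ± 3.33 after PKR siRNA 2. CDKN2C made up the rest in each group. The summed INK4 level per kb was 44.9 ± 5.41 after control siRNA, 83.3 ± 5.23 after PKR siRNA 1 and 72.3 ± 7.10 after PKR siRNA 2, and 42.7 ± 2.54, 38.3 ± 4.47 and 27.8 ± 1.79 across the C16 table in order of dose. The summed GADD45 level was 90.9 ± 12.9, 130 ± 5.85 and 241 ± 24.2 in the same order of siRNA groups and 103 ± 9.52, 127 ± 5.06 and 127 ± 7.34 in order of dose.

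**Figure D5:**
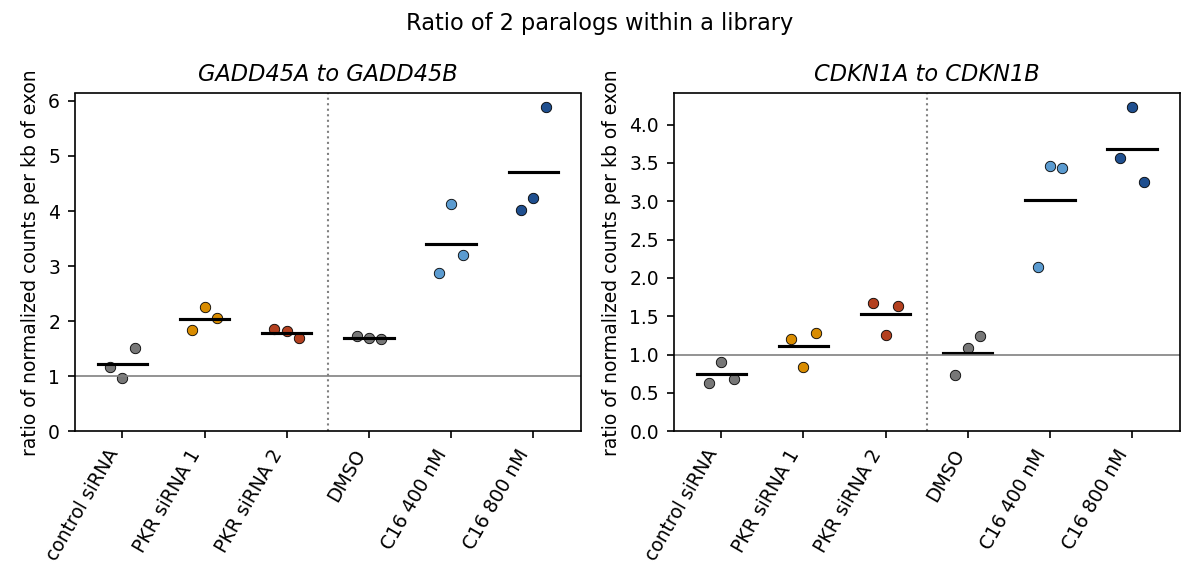
Ratio of normalized counts per kb of exon for GADD45A to GADD45B (left) and CDKN1A to CDKN1B (right), with 1 point per library and a bar at the group mean, the dotted line separating the 2 tables. Both ratios are higher with C16 than with DMSO, with means of 1.70 and 1.02 for DMSO and 4.70 and 3.68 at 800 nM, while the 2 doses overlap.

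Lists of genes around the members were set beside all genes tested, of which 21.1% were called in either direction after PKR siRNA 1, 23.5% after PKR siRNA 2, 12.5% at 400 nM C16 and 25.7% at 800 nM. The median log2 fold change of all genes was -0.0066, -0.011, 0.0010 and 0.0020 in that order. Of 15 genes that the inhibitors act on or through (kinases, cyclins, pocket proteins and the transcription factor E2F1), 14 were tested in the siRNA table. After PKR siRNA 1, 3 were up and 0 down (21.4% called, median 0.29), a share near that of all genes, and after PKR siRNA 2, 2 were up and 4 down (42.9%, median 0.15). CDK6, the D-type cyclin partner bound by INK4 proteins, rose after both siRNAs (1.77, SE 0.10, and 1.39, SE 0.10, on the log2 scale), from 89.2 ± 16.9 normalized counts to 304 ± 23.7 and 234 ± 17.1, and was not called with C16 (0.31 and 0.43). With C16 all 15 were tested, with 5 up and 0 down at 400 nM (33.3% called, median 0.30) and 5 up and 1 down at 800 nM (40%, median 0.43). CCND2, a D-type cyclin, rose by 2.95 and 3.31 on the log2 scale (SE 0.42), from 1.52 ± 2.02 normalized counts to 15.0 ± 2.85 and 19.4 ± 3.10. CCND2 reached the minimum mean only through the C16 groups and was not tested in the siRNA table. Its calls up, which count among the 5 at each dose, were thus in part fixed by that minimum. CCNE2, a cyclin E, rose at both doses (1.26 and 1.59, SE 0.18). CCND3, a further D-type cyclin, rose at both doses (1.18 and 1.41, SE 0.15) but fell after PKR siRNA 2 (-0.85, SE 0.14), with 0.44 after PKR siRNA 1, under the fold threshold. CDK2, a partner of cyclins E and A, rose at both doses (0.86 and 0.81, SE 0.13) and after PKR siRNA 1 (1.22, SE 0.12), with 0.36 after PKR siRNA 2, under the fold threshold.

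Of 13 partners of GADD45 and genes of the p38/JNK arm, 12 were tested. After PKR siRNA 1, 1 was up and 1 down (16.7% called, median -0.049), and after PKR siRNA 2, 0 were up and 1 down (8.33%, median -0.18). At 400 nM C16, 1 was up and 1 down (16.7%, median 0.044), and at 800 nM, 1 was up and 2 down (25%, median 0.062), beside 12.5% and 25.7% of all genes. MAP2K3, a kinase that activates p38, rose at both doses of C16 (1.18 and 1.55 on the log2 scale, SE 0.14) and after PKR siRNA 1 (0.87, SE 0.12), with -0.36 after PKR siRNA 2, under the fold threshold. APEX1, a base excision repair endonuclease, fell at both doses (-0.70 and -1.09, SE 0.10) and was called after neither siRNA (-0.047 and -0.13).

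For p53 and 22 of its other targets, 22 of 23 genes were tested in the siRNA table, of which 3 were up and 2 down under PKR siRNA 1 (22.7% called, near the 21.1% of all genes, median -0.094) and 5 up and 2 down under PKR siRNA 2 (31.8% beside 23.5%, median 0.25). Of 20 tested with C16, 2 were up and 4 down at 400 nM (30% beside 12.5%, median -0.0018) and 3 up and 6 down at 800 nM (45% beside 25.7%, median -0.17). RPS27L, a ribosomal protein paralog, rose after both siRNAs (1.87 and 1.52, SE 0.21) and fell with both doses of C16 (-1.11 and -1.20, SE 0.22). SESN2, an inhibitor of mTORC1 signalling, rose after PKR siRNA 1 (0.95, SE 0.12), fell after PKR siRNA 2 (-0.61) and rose at both C16 doses (1.32 and 1.05, SE 0.13). TP53I3, a quinone oxidoreductase, fell after PKR siRNA 1 (-0.62, SE 0.13), rose after PKR siRNA 2 (0.70) and fell at both C16 doses (-0.60 and -1.42, SE 0.18). AEN, a nuclease, rose at both doses (0.87 and 1.06, SE 0.15), with -0.0019 and -0.54 after the siRNAs, not called. PLK2, a polo-like kinase, fell at both doses (-0.77 and -0.70, SE 0.12) and rose after PKR siRNA 2 (0.94, SE 0.075), with -0.15 after PKR siRNA 1, not called.

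Known regulators of the members numbered 19, of which 16 were tested for the siRNAs and 13 for C16. The list was not divided by whether a gene raises or lowers the members. After PKR siRNA 1, 9 were up and 0 down (56.2% called, beside 8.53% of all genes up and 12.6% down, median 0.65), and after PKR siRNA 2, 5 were up and 1 down (37.5%, beside 10.8% and 12.8%, median 0.22). Those up after PKR siRNA 1 were MYC, ATF4, DDIT3, ATF3, KLF4, KLF6, EGR1, RELA and EZH2. At 400 nM C16, 3 were up and 0 down (23.1%, beside 7.08% and 5.45%, median 0.13), and at 800 nM, 2 were up and 1 down (23.1%, beside 11.6% and 14.1%, median -0.080). ATF3, a stress-induced transcription factor, rose in all 4 comparisons (1.33, 1.21, 1.95 and 1.90, in the order PKR siRNA 1, PKR siRNA 2, 400 nM and 800 nM). DDIT3, the gene for CHOP, also rose in all 4 (0.72, 0.83, 1.05 and 0.80 in that order). ATF4, the transcription factor of the integrated stress response, rose after both siRNAs (1.16 and 0.82, SE 0.074) and at 400 nM (0.70, SE 0.083), with 0.16 at 800 nM, not called. KLF6, a zinc finger factor that acts on CDKN1A, rose after both siRNAs (0.84 and 0.97, SE 0.070), with 0.21 and -0.26 at the C16 doses, not called. EGR1, an immediate early transcription factor, rose after PKR siRNA 1 (1.61, SE 0.37) and fell after PKR siRNA 2 (-1.53), and was not tested with C16.

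A list drawn up for ubiquitin ligase genes around p27 and p21 held 11 genes, all tested. After PKR siRNA 1, 1 was up and 2 down (27.3% called, median 0.082), and after PKR siRNA 2, 1 was up and 1 down (18.2%, median -0.15), beside 21.1% and 23.5% of all genes. At 400 nM C16, 1 was up and 0 down (9.09%, median 0.012), and at 800 nM, 3 were up and 0 down (27.3%, median 0.072), beside 12.5% and 25.7%. CKS1B, the cofactor of SKP2 for p27, rose after both siRNAs (1.32 and 0.98, SE 0.10); it is known to have processed pseudogenes, so its counts may be split. CUL4B, a cullin of the ligase family that marks p21, fell after both (-0.79 and -0.93, SE 0.079). The gene up at 400 nM was FBXW7, which is known for marking cyclin E and not p27 or p21, and it was also up at 800 nM (0.72 and 0.75, SE 0.28). SKP2 and DTL were the others up at 800 nM. Among 16 proliferation markers, 2 were up and 1 down after PKR siRNA 1 (18.8% called, median 0.049) and 0 up and 4 down after PKR siRNA 2 (25%, median -0.46), beside 21.1% and 23.5% of all genes. With C16, 1 was up and 0 down at 400 nM (6.25%, median 0.057) and 4 up and 0 down at 800 nM (25%, median 0.049), beside 12.5% and 25.7%. RRM2, the ribonucleotide reductase subunit, rose at both doses (0.78 and 0.76, SE 0.079), with -0.58 and -0.21 after the siRNAs, under the fold threshold. The part of proliferation in the members' changes was not tested.

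The genes with levels most like GADD45A were found from the smaller of the correlations of log2 levels over the 9 libraries of each table, among 9821 genes tested in both. They were FAM53C (r = 0.939 for the siRNA and 0.926 for the C16 libraries), P4HB (0.924 and 0.936) and ETF1 (0.922 and 0.931). For CDKN1A they were EPAS1 (0.911 and 0.873), CPD (0.857 and 0.902) and TNFRSF1B (0.853 and 0.845). GADD45A and CDKN1A correlated with each other at 0.917 and 0.756. These are descriptions of libraries that share their groups and depth.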

How the data were processed

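The measurement was mRNA abundance in PANC-1 cells by poly(A) RNA sequencing with a directional kit. The authors mapped reads to hg38 with TopHat, per the labels, ran featureCounts for reads per gene, and used TMM in the TCC package on 2 tables separately. The deposited normalized counts are a signal per gene, and the reads behind them were recovered as whole multiples of the value of 1 read (tolerance 0.05). The annotation and the strand setting are not given in the sources used here.

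The test was two-sided limma 3.58.1 (R 4.3.3, trend) on log2 (normalized count + 1), 9 libraries in each fit, keeping genes whose mean reached 10, with Benjamini-Hochberg adjustment over all of these. A gene was called at an adjusted p under 0.05 and a fold over 1.5. The log2 scale with a pseudocount understates the change of low genes. Alternatives were pseudocounts of 0.5 and 5, no minimum, a minimum of 30, median-of-ratios rescaling, fits of 2 groups alone, a replicate block, edgeR 4.0.16 and DESeq2 1.42.0 on recovered reads, and each library left out. Scripts were tested on simulated data. Counting intervals are 95%. Replicates differed by more than sampling noise in all 18 pairs and none were merged.

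The members, gene lists and tests were chosen with earlier results of these data known. Genes named beyond the members were EIF2AK2, list genes called in both siRNA comparisons or both C16 comparisons (at most 4 a list), the 3 most similar genes for GADD45A and CDKN1A, and the genes of the 9p21 list.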

Additional observations from a re-analysis of the deposited data

Results flagged for a closer look

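GADD45B and CDKN2C were singled out because their libraries lay on opposite sides of the control after PKR siRNA 2 and with C16, and CDKN2C also after PKR siRNA 1. For GADD45B the changes on the log2 scale were 1.08 after PKR siRNA 2, and -0.39 at 400 nM (limma adjusted p = 0.126, not called) and -0.73 at 800 nM C16. PKR siRNA 1 gave GADD45B a change of 0.060 (limma adjusted p = 0.758), with libraries that overlapped the control. CDKN2C changed by 0.85 after PKR siRNA 1 and 0.78 after PKR siRNA 2, against -0.52 at 400 nM, under the fold threshold, and -1.04 at 800 nM. Apart from GADD45B after PKR siRNA 1, all 3 treated libraries lay on the same side of all 3 control libraries. This is how the 2 genes were picked, so it is not separate support. The difference between the treatments was not tested, because the tables were normalized separately. The siRNA and C16 samples also carry different run labels, whose meaning is not stated, so treatment and run cannot be told apart.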

How the results depend on the processing

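Of 640 recomputed fold changes of the tested members, 627 kept their direction and their side of the thresholds, 5 no longer passed, 4 newly passed and 4 changed sign; all of these 13 came from leaving out a library, and the 316 from the other alternatives kept both. CDKN2D has no value, and so no call, with a minimum mean of 30, nor for PKR siRNA 2 and 800 nM C16 against their controls with only those 2 groups fitted; with the minimum of 30 the members called were 2 in place of 3 (PKR siRNA 1), 3 in place of 4 (between the siRNAs), 2 in place of 3 (400 nM) and 4 in place of 5 (800 nM, also with 2 groups fitted). The sign changes were in differences near 0: CDKN2D after PKR siRNA 2 against control ranged from -0.13 to 0.33 with a library left out, and CDKN2C between the siRNAs from -0.14 to 0.0060. The number of members called kept within 1.5 times in 107 of 108 recomputations, and between the C16 doses it ranged from 0 to 1 with a library left out. Across all genes, a minimum mean of 30 called 769 at 400 nM in place of 1248, 1618 at 800 nM in place of 2561, and 313 between the doses in place of 507, where fewer genes were tested; DESeq2 called 188 between the doses, and the cause was not tested. Same-numbered libraries of different groups did not deviate together (18 correlations, -0.0491 to 0.0324), and a library correlated best with its own number in 12 of 36 checks. No pairing by number was detected, which does not show that there was none. With the replicate block the members called were 3, 4 and 4 in the siRNA comparisons and 3, 5 and 0 in the C16 comparisons, as without it. Depth limits CDKN2D, CDKN1C and GADD45G most.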
